A study of Mus musculus with 4 samples.

Results

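The co-inhibitory receptors of T cells and related surface proteins, 10 genes in all (Ctla4, Pdcd1, Lag3, Tigit, Havcr2, Btla, Cd200, Cd5, Cd160 and Lair1) were followed through the mRNA sequencing of sorted Il10-EGFP+ and Il10-EGFP- CD4+ T cells. They were chosen by name, as 10 of the 47643 Ensembl genes of the count table, and each matched 1 identifier. The list was drawn up when it was known that Cd200 was lower and Ctla4 higher in Il10-EGFP+ cells, so the differences of its members between the populations are a description, given with no p-value. The filter for at least 10 counts over the 4 libraries, which left 9608 genes, kept 9 members and removed Havcr2, with 8 counts.

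All cells came from spleens of Tg4 Nr4a3-Tocky Il10-EGFP mice (written IL-10 GFP in the labels), whose T cells bear a transgenic receptor that recognises part of myelin basic protein. They also carry EGFP as a reporter of Il10, and a Timer protein whose fluorescence follows Nr4a3 transcription after receptor signalling. Each mouse received 4 mg/kg of the peptide [4Y]-MBP under the skin and was studied at 24 h, so that no library of undosed cells was compared. CD4+ cells positive for the Timer were separated into those with EGFP (Il10-EGFP+) and those without it (Il10-EGFP-), and 2 libraries of each were analysed. The labels speak of 2 biological replicate mice. They do not give age, and they do not say whether a replicate number marks the same mouse in both populations. The paper speaks of a biological replicate pair, without saying which libraries the numbers pair. The main fit had no replicate block, so the p-values below rest on the spread between these libraries. Fits with a block are given in the last section. All libraries thus stand for 1 receptor specificity, 1 dose and 1 time. Where counts are written as 1 pair against another, the Il10-EGFP- libraries come first, each pair in the order of the replicate numbers.

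The libraries held between 644679 and 730330 counts, made from the 3' ends of transcripts, so a count does not scale with the length of the gene. Levels are given in CPM, the usual unit for the share of a gene in all counts of its library, after TMM scaling, the edgeR factor for library composition, and may therefore be set side by side between genes, apart from differences in how well each 3' end is captured. Il10, which the sort separates, was at 0 in both Il10-EGFP- libraries and reached 29 and 41 counts in the other population. Cd4 had between 149 and 209 counts in every library and Cd8a between 3 and 10. Across all 9608 genes, edgeR's quasi-likelihood test called 393 (4.09%) at a Benjamini-Hochberg adjusted p under 0.05, with 226 (2.35%) higher and 167 (1.74%) lower in Il10-EGFP+ cells.

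Co-inhibitory receptors are surface proteins that restrain a T cell after it has been activated. CTLA-4 competes with the costimulator CD28 for CD80 and CD86. PD-1 (Pdcd1), BTLA and TIGIT carry tyrosine motifs in their tails that recruit phosphatases, and LAG-3 binds MHC class II. TIM-3 is encoded by Havcr2, CD160 shares the ligand HVEM with BTLA, LAIR-1 binds collagens, and CD5 dampens signals of the T cell receptor. CD200 works from the other side: it is a membrane glycoprotein with a short tail, and it inhibits cells that bear its receptor, chiefly myeloid cells. LAG-3 and TIGIT in particular are used as markers of type 1 regulatory (Tr1) cells.

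The 10 genes together took nearly the same share of each library, but were made up of different genes in the 2 populations. Their summed counts were 268 and 263 without EGFP, and 245 and 261 with it. These were 0.0367% and 0.0383% of all counts in Il10-EGFP- cells and 0.0380% and 0.0373% in Il10-EGFP+ cells, and in each library the exact 95% interval (Clopper-Pearson, counting error only) held the shares of the other 3. In TMM-scaled CPM the sum was 373.8 ± 14.1 in Il10-EGFP- and 382.4 ± 8.25 in Il10-EGFP+ cells (SD, n = 2 each). Cd200 took 31.7% and 42.2% of the summed counts in Il10-EGFP- cells and 6.94% and 6.13% in Il10-EGFP+ cells. Ctla4 took 21.3% and 20.9% in Il10-EGFP- cells and 46.5% and 49.4% in Il10-EGFP+ cells. The largest single item was thus Cd200 in one population and Ctla4 in the other. Only these 2 of the 9 tested members were called by edgeR, beside 4.09% of all genes, and DESeq2 called the same 2 beside 1.17%. DESeq2 with a replicate block called Cd200 alone, beside 39 of all 9608 genes. The choice of the members leaves these counts without further reading.

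**Figure D1:**
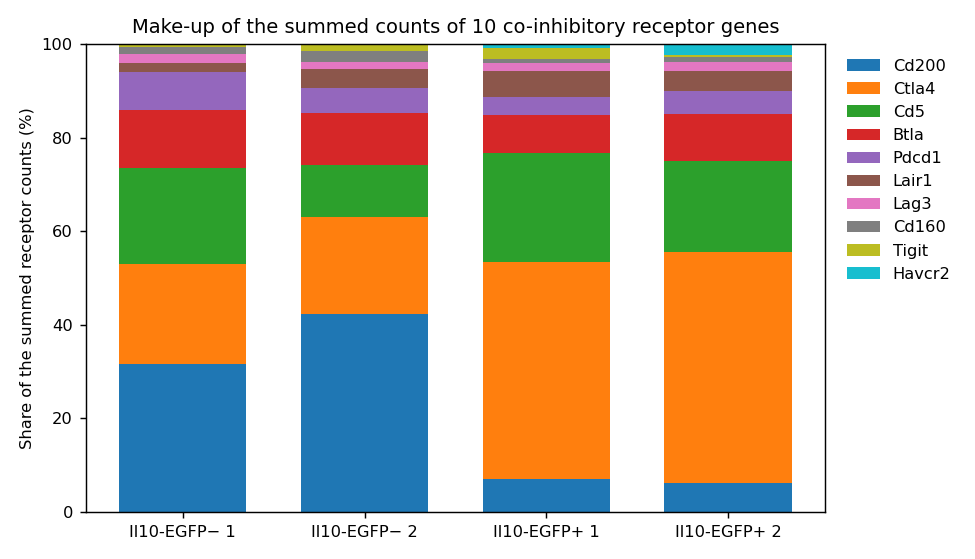
Share of the summed counts of the 10 genes (y axis, percent) taken by each gene in each of the 4 libraries (x axis, population and replicate number). The Cd200 segment is at 31.7% and 42.2% in the Il10-EGFP- bars and at 6.94% and 6.13% in the Il10-EGFP+ bars, while the Ctla4 segment is at 21.3% and 20.9% and then at 46.5% and 49.4%.

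Cd200 (ENSMUSG00000022661; chromosome 16 of GRCm38, 45382135 to 45409053, minus strand) gave 85 and 111 counts without EGFP, and 17 and 16 with it. Both Il10-EGFP- libraries lay far above both Il10-EGFP+ libraries, a separation in CPM that 44.6% of all tested genes showed in one direction or the other, and the Il10-EGFP+ pair lay close together. In normalized values this was 138.7 ± 32.9 CPM against 25.0 ± 2.73 CPM (SD, n = 2 each), and the log2 fold change was -2.46 (standard error 0.29). From the summed counts, scaled by library size after TMM scaling, Cd200 was 5.53-fold higher in Il10-EGFP- cells, with an exact 95% interval of 3.81 to 8.26 for counting error. Among the 9608 genes, Cd200 was number 37 from the bottom by log2 fold change. The authors' rlog values, a log2 scale that shrinks scarce genes to their average, were 5.88 and 6.11 without EGFP and 5.23 and 5.18 with it, a difference of -0.79. With each library left out in turn, the log2 fold change ran from -2.69 to -2.20. In these bulk samples, fewer cells that express a gene and less of its RNA per cell cannot be told apart.

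Ctla4 (ENSMUSG00000026011; chromosome 1, 60887000 to 60915832, plus strand) gave 57 and 55 counts without EGFP, and 114 and 129 with it. The replicates of each population lay close together, and both Il10-EGFP+ libraries were above both Il10-EGFP- libraries. The levels were 78.8 ± 2.04 and 183.4 ± 3.87 CPM (SD, n = 2 each). The log2 fold change was 1.22 (standard error 0.21), or 2.33-fold from the summed counts with an exact interval of 1.86 to 2.94. Its log2 fold change of 1.19 to 1.24 with each library left out varied less than that of Cd200, and Ctla4 was number 433 from the top of the 9608 genes. The rlog values were 6.11 and 6.13 against 6.67 and 6.69, a difference of 0.56.

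A ratio of 2 genes within a library needs no scaling between libraries. There were 1.49 and 2.02 counts of Cd200 for each count of Ctla4 in the Il10-EGFP- libraries. In the Il10-EGFP+ libraries there were 0.149 and 0.124. The exact 95% intervals of the Il10-EGFP- ratios were 1.05 to 2.12 and 1.45 to 2.84, and those of the Il10-EGFP+ ratios were 0.0840 to 0.249 and 0.0688 to 0.209. Ctla4 was also counted against Cd28, its activating counterpart and neighbour on chromosome 1. That ratio was 0.195 and 0.221 in Il10-EGFP- cells and 0.344 and 0.410 in Il10-EGFP+ cells, so Cd28 had between 2.44 and 5.12 counts for each count of Ctla4. For Ctla4 over Icos the ratios were closer, at 0.230 and 0.204 without EGFP and 0.275 and 0.295 with it, and the intervals of all 4 libraries overlapped.

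**Figure D2:**
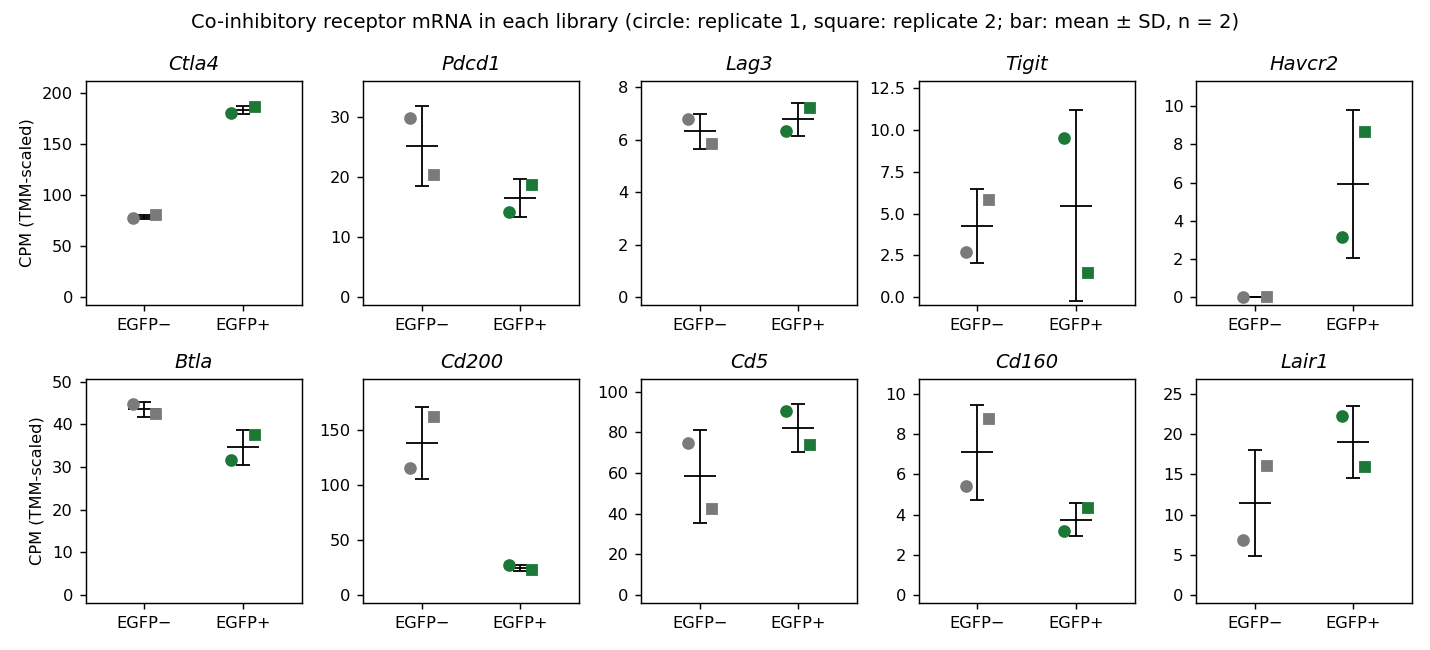
TMM-scaled CPM (y axis, from 0, own scale in each panel) of the 10 genes in Il10-EGFP- and Il10-EGFP+ libraries (x axis), with circles for replicate 1, squares for replicate 2, and the mean ± SD of 2 libraries. Ctla4 sits near 78.8 CPM in one population and 183.4 CPM in the other with little spread, Cd200 goes the other way from 138.7 to 25.0 CPM, and in the panels of Lag3, Tigit, Cd5 and Lair1 the libraries of the populations overlap.

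The sequences upstream of a RefSeq start site of these 2 genes are shown because edgeR called no other member. RefSeq (GRCm38.p6) gave a start site for 9 of the 10 members. The 250 bases before it were searched on both strands for the core of NFAT sites, GGAAA, the E-box CANNTG, AP-1 (TGANTCA), the NR4A site AAAGGTCA, CRE (TGACGTCA) and the TATA box TATAAA. The Cd200 window is chr16:45409054-45409303 on the minus strand, and that of Ctla4 is chr1:60908775-60909024 on the plus strand. The Ctla4 window lies inside the annotated span of the gene given above, and the distances given below use that span. Both windows are written 5' to 3' along the gene, with matches to GGAAA (read as TTTCC on this strand) and to the E-box in capitals.
Cd200: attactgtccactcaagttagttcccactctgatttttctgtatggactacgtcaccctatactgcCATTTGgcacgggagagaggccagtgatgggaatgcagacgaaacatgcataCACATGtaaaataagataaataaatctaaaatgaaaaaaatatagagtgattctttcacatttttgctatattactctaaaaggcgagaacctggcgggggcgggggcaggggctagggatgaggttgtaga
Ctla4: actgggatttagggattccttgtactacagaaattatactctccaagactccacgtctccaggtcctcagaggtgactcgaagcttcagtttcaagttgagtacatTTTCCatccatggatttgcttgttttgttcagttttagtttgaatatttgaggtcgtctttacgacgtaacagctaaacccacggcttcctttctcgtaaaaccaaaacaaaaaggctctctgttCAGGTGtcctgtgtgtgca
The Cd200 window held E-box letters that start at positions -184 and -132 from the start site and no GGAAA. The Ctla4 window held an E-box at -19 and the NFAT core on the other strand at -144. Neither window held the letters of the other 4 motifs. Over the 32851 mouse promoter windows of the same length, 66.2% held an E-box and 55.6% held GGAAA, while 6.75% held the AP-1 letters, 1.34% the NR4A site, 1.55% CRE and 12.4% the TATA box. A match is a description of letters, not of a bound site, and nothing in these data reads out binding.

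PD-1, BTLA and CD160 are members whose genes had lower mean levels in Il10-EGFP+ cells, by amounts that the counts do not resolve. Pdcd1 (ENSMUSG00000026285; chromosome 1, 94038305 to 94052553, minus strand) gave 22 and 14 counts without EGFP, and 9 and 13 with it. Its level was 25.1 ± 6.67 against 16.5 ± 3.18 CPM (SD, n = 2 each), and its log2 fold change of -0.60 had a standard error of 0.47. The exact interval of the count ratio, 0.368 to 1.15 around 0.656, included a ratio of 1, and the log2 fold change ran from -0.84 to -0.30 with 1 library left out. Btla (ENSMUSG00000052013; chromosome 16, 45224315 to 45257670, plus strand) had 33 and 29 against 20 and 26 counts. These were 43.6 ± 1.75 and 34.6 ± 4.11 CPM (SD, n = 2 each), a log2 fold change of -0.33 (standard error 0.34) and a count ratio of 0.797 with an interval of 0.532 to 1.19. Cd160 (ENSMUSG00000038304; chromosome 3, 96798763 to 96829351, minus strand) had 4 and 6 against 2 and 3 counts. With so few, the exact interval of its ratio of 0.537 reached from 0.144 to 1.72, and the log2 fold change of -0.87 had a standard error of 0.97. For Pdcd1 over Ctla4 within a library, the ratio was 0.386 and 0.255 without EGFP and 0.0789 and 0.101 with it, where the exact intervals (0.0352 to 0.155 and 0.0522 to 0.179) overlapped that of Il10-EGFP- replicate 2 (0.131 to 0.464).

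Cd5 and Lair1 had higher mean levels in Il10-EGFP+ cells, and in both the libraries of the populations overlapped. Cd5 (ENSMUSG00000024669; chromosome 19, 10717116 to 10739002, minus strand), whose product associates with the T cell receptor, gave 55 and 29 counts without EGFP, and 57 and 51 with it. The first Il10-EGFP- library reached the level of the Il10-EGFP+ libraries and the second did not, at 58.5 ± 22.9 against 81.9 ± 11.8 CPM (SD, n = 2 each). The log2 fold change of 0.47 (standard error 0.27) became 0.13 when Il10-EGFP- replicate 2 was left out, and 0.94 when it was the only Il10-EGFP- library kept, so its size turns on which Il10-EGFP- library is used. The counting interval of 1.03 to 1.86 around a ratio of 1.38 does not include that spread. Lair1 (ENSMUSG00000055541; chromosome 7, 4003402 to 4063204, minus strand) had 5 and 11 against 14 and 11 counts. Its ratio was 1.68 with an interval of 0.861 to 3.36, and its log2 fold change of 0.74 (standard error 0.56) was 0.23 when Il10-EGFP- replicate 1 was left out. Leaving out Il10-EGFP- replicate 2 gave 1.46.

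The transcripts of the Tr1 markers LAG-3 and TIGIT were scarce in both populations. Lag3 (ENSMUSG00000030124; chromosome 6, 124904361 to 124911705, minus strand) gave 5 and 4 counts without EGFP, and 4 and 5 with it, or 9 in all in each population. The ratio of 1.07 had an exact interval of 0.378 to 3.05, so a difference within those bounds was not detectable at this depth. Tigit (ENSMUSG00000071552; chromosome 16, 43648867 to 43664146, minus strand) had 2 and 4 against 6 and 1 counts, with a ratio of 1.25 and an interval of 0.361 to 4.51. Its log2 fold change of 0.32 (standard error 1.04) became 1.13 when Il10-EGFP+ replicate 2 was left out. It turned to -0.13 when Il10-EGFP- replicate 1 was left out. Havcr2 (ENSMUSG00000020399; chromosome 11, 46454935 to 46481255, plus strand), for TIM-3, had 0 and 0 against 2 and 6 counts. By the exact 95% lower limit of its ratio, which covers counting error only, its level with EGFP was at least 1.83-fold higher. Lag3 was number 8 and Tigit number 9 of the 10 members by mean level in Il10-EGFP- cells, at 6.31 ± 0.672 and 4.28 ± 2.21 CPM (SD, n = 2 each), and 11.8% and 6.31% of the tested genes had a lower mean level over the 4 libraries.

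**Figure D3:**
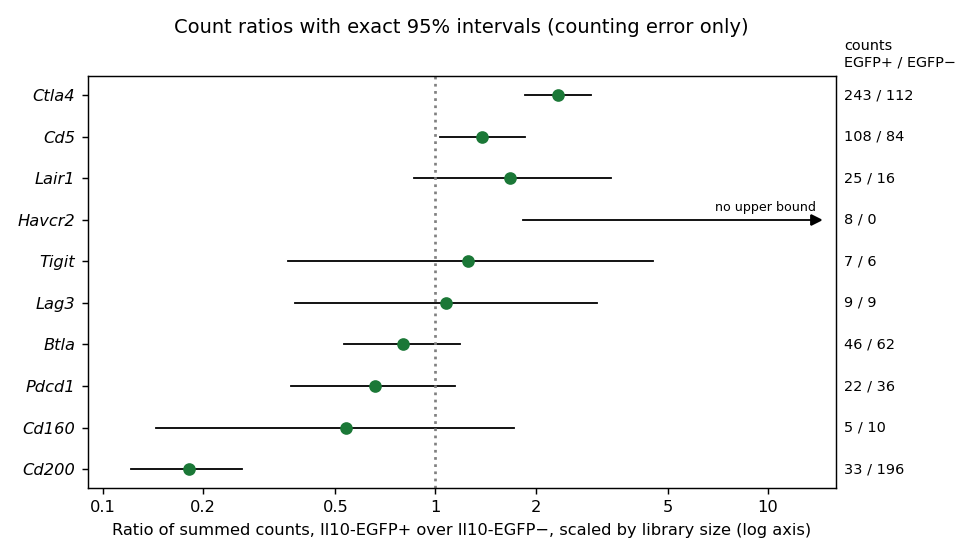
Ratio of the summed counts of Il10-EGFP+ over Il10-EGFP- libraries, scaled by library size after TMM scaling (x axis, log scale), for each gene (y axis), with exact 95% intervals that cover counting error only and the summed counts at the right. The interval of Ctla4 (1.86 to 2.94) and that of Cd200 (0.121 to 0.262) lie far from 1 on opposite sides, those of Lag3, Tigit and Cd160 span a wide range around 1, and Havcr2, with 0 counts in Il10-EGFP-, has a lower bound of 1.83.

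In order of level, Il10-EGFP- cells had Cd200 first, then Ctla4, Cd5, Btla, Pdcd1, Lair1, Cd160, Lag3, Tigit and Havcr2. Cd5 and Btla overlapped between libraries there, as did the neighbours from Lair1 to Tigit. In Il10-EGFP+ cells the order was Ctla4, Cd5, Btla, Cd200, Lair1, Pdcd1, Lag3, Havcr2, Tigit and Cd160. Here Lair1 and Pdcd1 overlapped, and so did neighbours from Lag3 to Cd160. Cd200 moved from the first to the fourth place, between Btla at 34.6 CPM and Lair1 at 19.0 ± 4.46 CPM (SD, n = 2). The ends of the Tigit and Lair1 transcripts hold 38 of 451 and 116 of 3002 stretches of 50 bases that also occur in another gene, which leaves the assignment of such reads uncertain, and no such sequence was found for the other 8 members. Exons of Cd160 overlap those of Pdzk1 on the other strand, which had 0 counts in each library.

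Several members are also made by B cells (Btla, Cd200, Cd5, Lair1) or myeloid cells (Havcr2, Lair1), and transcripts of those cells differed between the populations. The 10 B cell markers summed to 138.5 and 188.2 CPM without EGFP and 508.6 and 551.1 CPM with it. Of the 8 that were tested, 4 were called, all higher (Igkc, Ighm, Cd22 and H2-Aa). The defining markers Cd79a (2 and 0 against 0 and 0 counts) and Cd79b (1 and 1 against 4 and 2) were near 0. The 10 myeloid markers summed to 105.9 and 137.2 CPM without EGFP and 380.3 and 199.1 CPM with it, with 2 of 8 tested genes called higher (Lyz2 and S100a8), Csf1r at 0 and 1 against 11 and 1 counts, and Cd14 at 0 in every library. By contrast, the 10 T cell markers summed to between 3801 and 4651 CPM, and of these only Trac was called. Of the members named here, Cd200 and Btla had lower mean levels in Il10-EGFP+ cells, and Cd5, Lair1 and Havcr2 had higher ones. The part of B cell and myeloid transcripts in the levels of the members was not tested.

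Some of these receptors are also known from other T helper subsets, whose markers were listed too. Of 7 tested markers of follicular helper cells, which carry PD-1, BTLA and CD200, 0 were called by edgeR (0 also by DESeq2 and 0 at an unadjusted p under 0.05), with summed levels of 310.8 and 302.0 CPM without EGFP and 302.6 and 349.1 CPM with it. Regulatory T cell markers, among them Foxp3 with 10 and 6 against 6 and 1 counts, summed to between 503.6 and 565.5 CPM. Of the 5 tested, 0 were called by edgeR or DESeq2, and 0 had an unadjusted p under 0.05. Summed endothelial or stromal markers stayed between 13.1 and 33.3 CPM in all libraries, and those of CD8 or NK cells between 38.0 and 69.2 CPM. In these lists edgeR and DESeq2 called 0 genes, and 1 gene, Nkg7, had an unadjusted p under 0.05.

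Around the receptors, 76 genes of ligands, signalling, counterparts, trafficking and transcription factors were listed. The table held 74 of them, 58 were tested, and 6 were called (4 higher and 2 lower), which is 10.3% beside 4.09% of all genes. The lists were also chosen with earlier results of these data known, among them Maf, Prdm1 and Icos.

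Of 12 genes for ligands and binding partners, 5 were tested and 1 was called, which was lower in Il10-EGFP+ cells. Cd274, which encodes PD-L1, gave 25 and 20 counts without EGFP, and 3 and 8 with it. It fell from 31.6 ± 3.36 to 8.15 ± 4.80 CPM (SD, n = 2 each), a log2 difference of -1.91 (standard error 0.52, adjusted p = 0.0224, edgeR). This call was lost with Il10-EGFP- replicate 1 left out (adjusted p = 0.134) and with Il10-EGFP+ replicate 1 left out (adjusted p = 0.222, the largest over the alternatives, which began at 0.0103). It was also lost with limma on the rlog values (adjusted p = 0.109), and DESeq2 gave it no adjusted p. The gene also overlaps an annotated antisense gene, AC119228.1, that was not analysed here. With 1 library left out, the log2 fold change of Cd274 ran from -2.69 (without Il10-EGFP+ replicate 2) to -1.44 (without Il10-EGFP+ replicate 1). Pdcd1lg2, for PD-L2 and chosen after its values were seen, had 25 and 8 against 5 and 7 counts and was not called (adjusted p = 0.222, edgeR). Cd200r1, the receptor of CD200, had 4 and 1 against 1 and 3 counts. The TIM-3 ligand Lgals9, also picked after its values were seen, was the most abundant of the list, at 159.3 ± 16.1 and 184.2 ± 0.606 CPM (SD, n = 2 each), and was not called (adjusted p = 0.655, edgeR). Cd80, Cd86, Nectin2, Fgl1 and the HVEM gene Tnfrsf14 had at most 2 counts in any library. The median log2 fold change of the 5 tested genes of this list was 0.21, beside 0.00 over all genes.

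Among genes that carry the inhibitory signal inward, 1 of 13 tested was called. Dok2, an adaptor that dampens signals of the T cell receptor, gave 28 and 26 counts without EGFP, and 52 and 53 with it. It rose from 38.0 and 37.9 CPM to 82.4 and 76.5 CPM, by 1.06 on the log2 scale (standard error 0.29, adjusted p = 0.0224, edgeR). With any 1 of the 4 libraries left out the adjusted p was between 0.0744 and 0.115, and over all alternatives it ran from 0.0100 to 0.682. Ubash3b, a phosphatase of the same kind of pathway that was chosen after its values were seen, had 16 and 17 against 33 and 35 counts (adjusted p = 0.0557, edgeR). Of 14 alternatives, 2 called it: edgeR with a replicate block (adjusted p = 0.0400) and edgeR with at least 10 counts required in every library (adjusted p = 0.0282). The largest adjusted p was 0.466, with DESeq2. The phosphatase SHP-1, encoded by Ptpn6, had 97 and 79 against 75 and 41 counts and SHP-2, encoded by Ptpn11, had 34 and 36 against 24 and 29, and neither was called (adjusted p = 0.303 and 0.748, edgeR). These 2 were also picked after their values were seen. The median log2 fold change of the list was 0.26.

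Other inhibitory receptors and ectoenzymes gave 5 tested genes and 0 calls with edgeR, 0 with DESeq2 and 0 at an unadjusted p under 0.05. The 2 with the highest levels were Vsir, for VISTA, with 49 and 52 against 38 and 43 counts (log2 fold change -0.22, standard error 0.27), and Cd6, a relative of Cd5, with 32 and 33 against 27 and 40 counts (log2 fold change 0.14, standard error 0.31). Genes for traffic and shedding of the receptors gave 11 tested genes and 0 calls with either tool, with 0 at an unadjusted p under 0.05. Adam17, a protease that sheds LAG-3, had 79 and 99 against 58 and 74 counts (log2 fold change -0.33, standard error 0.22), and Cmtm6, which keeps PD-L1 at the surface, had 59 and 65 against 76 and 74 (log2 fold change 0.38, standard error 0.22). The medians were 0.14 and 0.28.

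Of 8 activating counterparts, Icos was the 1 gene called. It gave 248 and 270 counts without EGFP, and 415 and 438 with it. The level rose from 365.3 ± 40.5 to 644.7 ± 18.2 CPM (SD, n = 2 each), a log2 difference of 0.82 (standard error 0.14, adjusted p = 8.8e-05, edgeR), and the call was kept in all 14 alternatives, where the adjusted p was between 7.8e-09 and 0.0142. Cd28, with 292 and 249 against 331 and 315 counts, differed by 0.36 on the log2 scale (standard error 0.14, adjusted p = 0.162, edgeR). Cd226, the activating partner of TIGIT and chosen after its values were seen, had 12 and 4 against 3 and 1 counts, which gave a log2 fold change of -1.82 with a standard error of 0.91 (adjusted p = 0.325, edgeR). The list had a median of -0.01.

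The transcription factors tied to these receptors went in both directions. Prdm1 gave 12 and 16 counts without EGFP, and 52 and 67 with it, and Maf had 367 and 349 against 608 and 731. Their log2 fold changes were 2.18 (standard error 0.33, adjusted p = 5.88e-06, edgeR) and 1.00 (standard error 0.13, adjusted p = 3.58e-07, edgeR), and both were called in all 14 alternatives, with an adjusted p of at most 0.0271 for Prdm1 and 0.00662 for Maf. Tcf7, which encodes TCF-1, was lower in both Il10-EGFP+ libraries. It had 271 and 241 against 165 and 148 counts, or 359.7 ± 11.5 against 237.5 ± 33.9 CPM (SD, n = 2 each). The log2 fold change was -0.60 (standard error 0.16) and the adjusted p was 0.0156 (edgeR). The Tcf7 call was lost without Il10-EGFP- replicate 1 (adjusted p = 0.0893) and without Il10-EGFP+ replicate 2 (adjusted p = 0.261), and over the alternatives its adjusted p ran from 0.00147 to 0.401. Nr4a3, whose activity the Timer reports and which was chosen after its values were seen, had 16 and 11 against 3 and 2 counts and was not called (adjusted p = 0.0569, edgeR). The median of the 16 tested factors was -0.22.

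**Figure D4:**
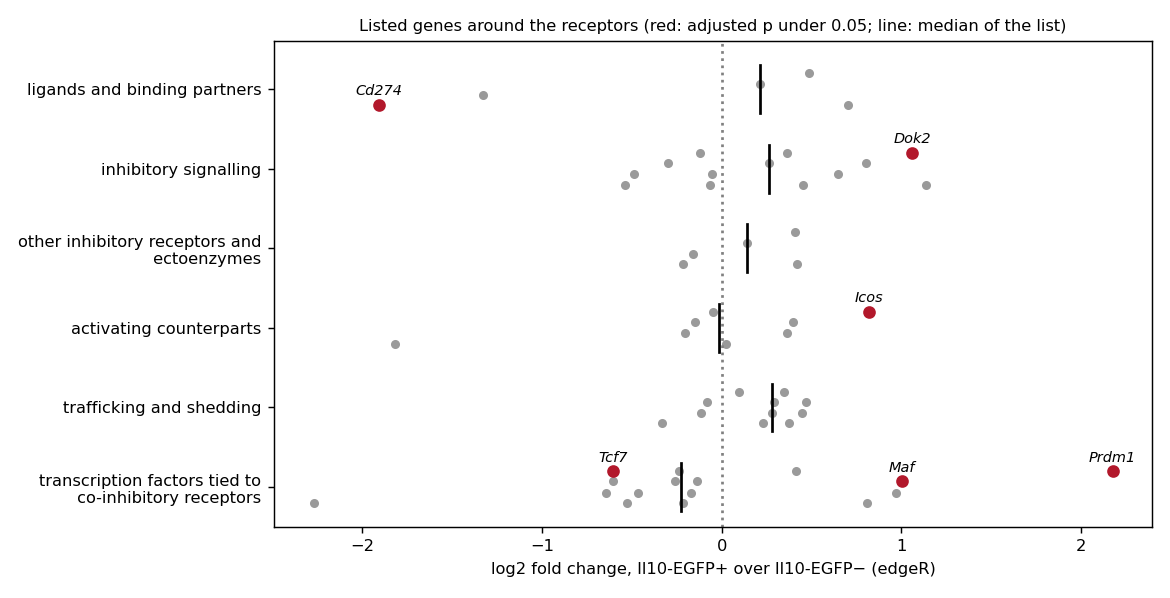
Log2 fold change from edgeR (x axis, Il10-EGFP+ over Il10-EGFP-) of each tested gene of the 6 lists around the receptors (y axis, points spread vertically for legibility), with genes at an adjusted p under 0.05 in red and the median of each list as a line. Named red points are Cd274 at -1.91, Tcf7 at -0.60, Icos at 0.82, Maf at 1.00, Dok2 at 1.06 and Prdm1 at 2.18, while the medians lie between -0.22 and 0.28.

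Cd200, Btla and Tigit lie on chromosome 16. Btla is 124.5 kb from Cd200 and Tigit is 1560 kb from Btla. Cd200 had 2.58 and 3.83 counts for each count of Btla in Il10-EGFP- cells, and 0.850 and 0.615 in Il10-EGFP+ cells. Of 20 genes of the table that lie within 500 kb of Cd200, itself included, 13 had 0 counts in every library and 6 were tested. None of the 5 tested besides Cd200 was called, neither by edgeR nor by DESeq2, and 0 had an unadjusted p under 0.05. Btla had a log2 fold change of -0.33, Atg3 of -0.23 (39 and 50 against 27 and 44 counts), Abhd10 of -0.77 (8 and 16 against 8 and 5) and Slc35a5 of 1.72 (0 and 4 against 5 and 8), and the predicted gene Gm6030 had at most 5 counts in a library. Near Ctla4, 7 of 28 genes were tested, and Icos was called besides Ctla4 itself. The gap between Ctla4 and Icos was 62.1 kb, and that between Cd28 and Ctla4 was 113.6 kb. The others (Cyp20a1, Abi2, Raph1 and Gm37198) had log2 fold changes between -1.20 and 0.34, and none was called. Of the uncalled neighbours of Ctla4, Cyp20a1 and Cd28 had an unadjusted p under 0.05 (edgeR). Cyp20a1 was lower in Il10-EGFP+ cells, with 25 and 15 against 9 and 7 counts (unadjusted p = 0.0184, edgeR), and Cd28 was higher (unadjusted p = 0.0145, edgeR).

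**Figure D5:**
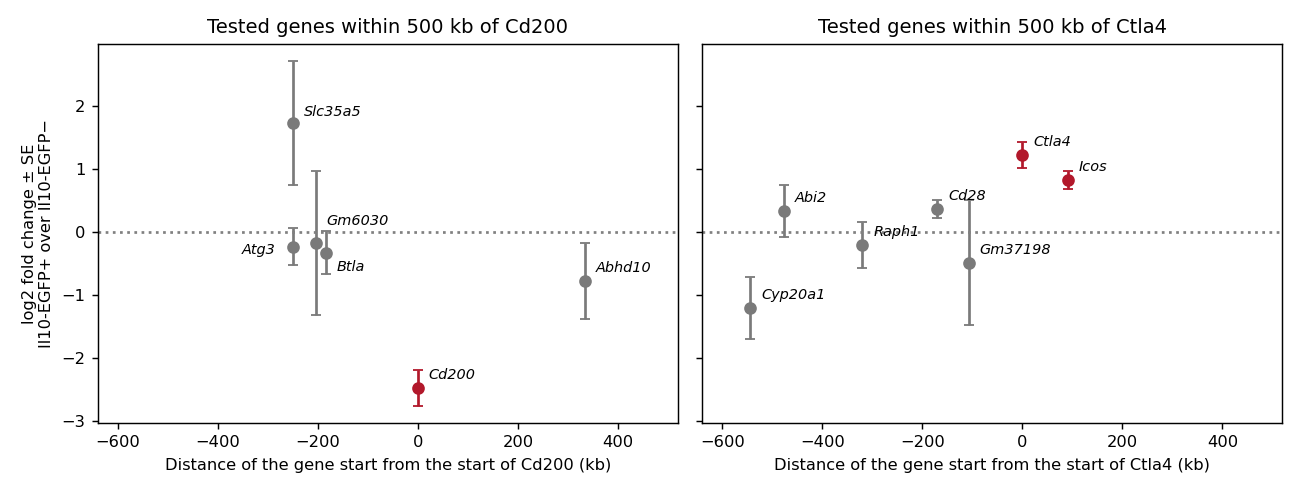
Log2 fold change with its standard error (y axis, edgeR, Il10-EGFP+ over Il10-EGFP-) of tested genes within 500 kb of Cd200 (left) and of Ctla4 (right), by the distance of their annotated start from that of the centre gene (x axis, kb), with genes called in red. Cd200 at -2.46 is the 1 red point on the left, where Btla is at -0.33, and Ctla4 at 1.22 and Icos at 0.82 are red on the right, where Cd28 is at 0.36.

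The genes whose pattern over the 4 libraries was nearest to that of Cd200, by the root mean square difference of log2(CPM + 1) around the mean of each gene among the 6781 genes that averaged 10 counts or more, were Thap1 (0.25), Dpy19l3 (0.28) and Mfsd2a (0.34). Mfsd2a, a lipid transporter, gave 24 and 37 counts without EGFP, and 9 and 6 with it. Thap1 had 18 and 25 against 4 and 5 counts, and Dpy19l3 had 20 and 20 against 5 and 3. All were far less abundant than Cd200 in Il10-EGFP- cells. The nearest to Ctla4 were Tacc3 (0.02), Ifi203 (0.04) and Knl1 (0.05). Tacc3 and Knl1, which act at the mitotic spindle and kinetochore, had 50 and 49 against 99 and 110 counts and 43 and 40 against 79 and 97 counts. Ifi203, a member of an interferon-inducible family with close copies that could share reads, had 70 and 67 against 132 and 160 counts. These genes were picked for their likeness, and 4 libraries allow no correlation.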

How the data were processed

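Libraries of mRNA 3' ends (QuantSeq FWD) were made from 4 sorted samples, and the authors aligned reads to GRCm38/mm10 with STAR 2.5.2a and counted them per gene with HTSeq 0.6.0. They deposited raw counts per Ensembl gene and a table of log2 values from the rlog transformation of DESeq2. The authors used molecular identifiers to assess PCR duplicates and remove amplification bias. The paper calls the counts read counts. The sources used here did not state whether reads that share an identifier were collapsed before counting. They also did not state the annotation release or the strand setting, so antisense pairs may share counts. A replicate pair that the authors removed as an outlier in a principal component analysis was not analysed here. The spread between replicates is therefore that of the libraries they kept. Symbols were missing for 419 identifiers.

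From the deposited counts, genes with at least 10 counts over 4 libraries were tested with the quasi-likelihood test of edgeR 4.0.16 (TMM scaling, R 4.3.3), with p-values adjusted by the Benjamini-Hochberg method over all 9608 genes. Alternatives used DESeq2 1.42.0, limma 3.58.1, other scalings and filters, a replicate block, and each library left out. The fit was tested on simulated data. The labels do not say whether replicate numbers pair libraries, so the fit had no block. Members and lists were chosen with earlier results of these data known. Named were all members, called genes of each list (otherwise its 2 most abundant), tested genes within 500 kb of Cd200 or Ctla4, and the 3 nearest in pattern to each. Further list and marker genes outside this rule were named after their values were seen. Exact ratio and share intervals cover counting error only, and are too narrow if the counts include PCR copies.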

Additional observations from a re-analysis of the deposited data

How the results depend on the processing

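Both called members kept their direction in all 14 alternatives. Of the other log2 fold changes that were recomputed, that of Tigit, 0.32 and not called, changed sign, to -0.13 without Il10-EGFP- replicate 1 and to -0.04 with limma voom. Cd200 was called in all 14 and Ctla4 was lost in 1, DESeq2 with a replicate block, which left 1 member called. Both were chosen with their differences in this contrast known, so these calls describe the settings and add no support. The number of genes called was 393 in the edgeR fit, 112 (1.17%) with DESeq2, 197 with limma on rlog values, 39 with DESeq2 and a replicate block, 560 with edgeR and a replicate block, and 212 to 272 with 1 library left out, where the lone library was assumed to vary like the other population. Of the listed pathway genes, 6 were called by edgeR, 3 by DESeq2, 3 by DESeq2 with a block, 9 by edgeR with a block, and 3 to 6 with 1 library left out. Whether a replicate number marks 1 mouse is not stated in the labels. Departures of libraries from their population mean correlated at 0.01 between equal numbers across 6781 genes, which does not settle the pairing. The cause of these differences was not tested. Depth limits Lag3, Tigit, Havcr2 and Cd160 most, with at most 6 counts in any library.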
